A study of Mus musculus with 8 samples.

Results

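The nuclear oxidative phosphorylation genes are the chromosomal genes for subunits of the 5 respiratory chain complexes, and some of their assembly factors, described here by the open chromatin around them in mouse dendritic cells. Members were protein-coding genes of mm10 whose symbols start with Nduf, with Sdh followed by a to d, with Uqcr, with Cox4 to Cox8, or with Atp5. The rule found 100 genes among 21631 protein-coding genes on the autosomes and the X chromosome, and no measured value entered it. Complex I has 47 of them, complex II 8, complex III 8, complex IV 20 and ATP synthase, or complex V, 17.

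The study compared genome binding of IRF3, IRF5 and IRF9 in stimulated CD8-positive dendritic cells, and those ChIP-seq samples were not analysed here. The values come from 2 ATAC-seq libraries of unstimulated CD8-positive dendritic cells, called replicate 1 and replicate 2, with no other treatment and no genotype given. ATAC-seq uses a transposase that cuts and tags accessible DNA, so that a pile of cut sites marks open chromatin. One label field places the cells in the spleen, another calls them a cell line, and none says whether the replicates were separate cultures, so the spread between them may be technical. Both libraries have the same treatment, so no condition was compared.

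The authors' peak lists held 50950 peaks in replicate 1 and 58319 in replicate 2, and 44365 merged regions were shared, meaning that peaks of both lists overlapped by at least 1 bp. The number of reads under each summit, recovered from the deposited values, had a median of 17 in replicate 1 and 22 in replicate 2 and a lowest value of 7 in replicate 1 and 9 in replicate 2. A gene without a listed region was therefore below what these libraries could list, which is not the same as closed. Of 12 genes used as markers of these dendritic cells, 7 had a shared region within 1 kb of an end (58.3%, against 47.8% of all coding genes). These 7 were Xcr1, Irf8, Tlr3, Itgax, Flt3, Id2 and Cadm1, while Clec9a, Batf3, Itgae, Cd8a and Zbtb46 had none that close. Itgax, Flt3, Id2 and Zbtb46, for example, are not particular to the CD8-positive type. Of 18 markers of T, B and NK cells, muscle and neurons, 2 had one, Cd3d with 11 reads in replicate 1 and 9 in replicate 2, and Ms4a1 with 11 in replicate 1 and 17 in replicate 2.

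Complexes I to IV pass electrons from NADH and succinate to oxygen in the inner mitochondrial membrane, and all but complex II pump protons, which ATP synthase uses to make ATP. Most of their subunits are encoded in the nucleus and imported, while a few core subunits come from mitochondrial DNA, so that the nuclear genes have to be expressed together with a separate genome. NRF1, the ETS factor GABP, YY1 and SP1 are known to act at promoters of these genes, and some complex IV subunits have separate isoforms for heart, muscle, lung or testis.

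The stretches around 6 annotated starts are shown because they span the members' range, from the highest-scoring region to a gene with none, and because they include both forms of 2 isoform pairs. Each line gives 200 bases before the start and 30 from it, 5′ to 3′ in the direction of transcription, from RefSeq on GRCm38.p6, the assembly that mm10 names. Capitals mark matches to the motifs listed further on. The stretches are chr13:86046766-86046995 on the minus strand for Cox7c, chr13:74350211-74350440 on the minus strand for Sdha, chr19:7217587-7217816 on the minus strand for Cox8a, chr7:140900417-140900646 on the minus strand for Cox8b, chr9:79759824-79760053 on the minus strand for Cox7a2 and chr7:30183971-30184200 on the plus strand for Cox7a1.
Cox7c: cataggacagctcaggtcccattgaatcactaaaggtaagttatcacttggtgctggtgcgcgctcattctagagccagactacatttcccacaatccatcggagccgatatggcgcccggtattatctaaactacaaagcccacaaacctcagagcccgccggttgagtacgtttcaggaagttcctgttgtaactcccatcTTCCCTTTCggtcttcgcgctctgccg
Sdha: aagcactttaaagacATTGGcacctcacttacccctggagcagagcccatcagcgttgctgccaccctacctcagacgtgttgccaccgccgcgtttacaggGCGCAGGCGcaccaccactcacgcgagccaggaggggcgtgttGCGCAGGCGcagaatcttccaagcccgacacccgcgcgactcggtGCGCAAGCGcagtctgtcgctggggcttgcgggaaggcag
Cox8a: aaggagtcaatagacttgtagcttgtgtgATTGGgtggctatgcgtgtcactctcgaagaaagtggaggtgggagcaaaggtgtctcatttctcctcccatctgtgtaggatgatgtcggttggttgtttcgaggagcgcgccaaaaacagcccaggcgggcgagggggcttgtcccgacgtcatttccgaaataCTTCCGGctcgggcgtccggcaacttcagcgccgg
Cox8b: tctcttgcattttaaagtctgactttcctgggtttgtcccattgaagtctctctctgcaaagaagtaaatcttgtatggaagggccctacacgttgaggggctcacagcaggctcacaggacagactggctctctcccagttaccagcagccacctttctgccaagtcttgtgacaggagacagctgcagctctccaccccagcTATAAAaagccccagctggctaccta
Cox7a2: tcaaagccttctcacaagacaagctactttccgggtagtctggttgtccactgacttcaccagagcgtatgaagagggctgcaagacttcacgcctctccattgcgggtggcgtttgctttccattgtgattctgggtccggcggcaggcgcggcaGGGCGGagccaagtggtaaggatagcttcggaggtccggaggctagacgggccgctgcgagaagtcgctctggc
Cox7a1: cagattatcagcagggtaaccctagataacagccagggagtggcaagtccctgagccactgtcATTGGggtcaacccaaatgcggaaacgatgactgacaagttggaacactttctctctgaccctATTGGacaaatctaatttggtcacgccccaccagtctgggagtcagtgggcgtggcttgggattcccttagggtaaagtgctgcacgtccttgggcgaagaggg
The Cox7c stretch has 13 CpG pairs and no NRF1, ETS or YY1 match, and its single capitalised run is an ISRE-like match that begins 3 bases after the start. The Sdha stretch has 21 CpG pairs and 3 NRF1 matches, which begin at -98, -55 and -10 from the start. Cox8a has 17 CpG pairs and an ETS match at -5, whereas Cox8b has 1 CpG pair and a TATAAA at 4 bases after its annotated start. Cox7a2 has 16 CpG pairs and an SP1 match at -44, and Cox7a1 has 6 CpG pairs and CCAAT boxes, read on the other strand, at -137 and -74.

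Most members had open chromatin at a gene end in both libraries. A shared region lay within 1 kb of either end of 85 of 100 members (85.0%, 95% Clopper-Pearson interval 76.5 to 91.4%), against 47.8% of all coding genes. Taken library by library, 86 members had a peak there in replicate 1, against 48.9% of all coding genes, and 86 had one in replicate 2, against 50.3%. Counting any annotated start as well as the ends, 88 members had a shared region, against 50.9% of all coding genes. Intervals cover counting error over genes only, and genes are not independent replicates.

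A reference start and strand were at hand for 82 members. Of these, 77 had a shared region within 1 kb of the start (93.9%, interval 86.3 to 98.0%), against 49.3% of all coding genes with a start. The 5 without were Atp5l, Cox6b2, Cox7b2, Cox8b and Ndufb4b. Among the 85 members with an end region, the highest-scoring one reached within 1 kb of the start in 72, lay only at the other end in 2, Ndufb6 and Ndufs3, and belonged to a gene with no start given in 11.

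**Figure D1:**
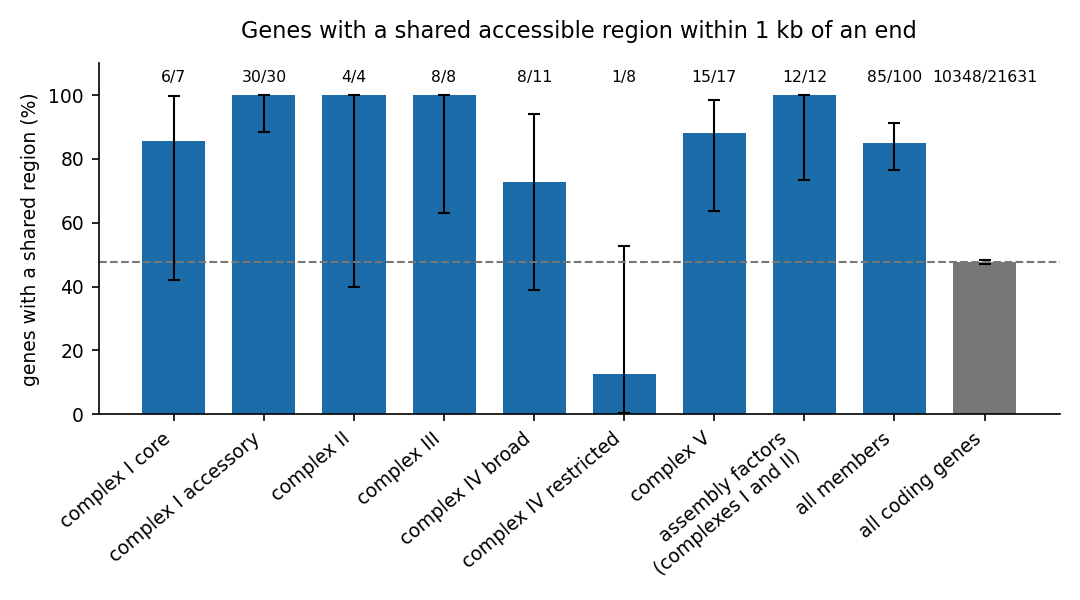
Percent of genes in each class with a shared accessible region within 1 kb of an end, with all coding genes at the right and as a dashed line; bars start at 0, error bars are 95% Clopper-Pearson intervals, and counts stand above. Every class but the restricted complex IV isoforms (1 of 8) stands above all coding genes, though the intervals of the small classes complex I core, complex II and complex IV broad reach below the dashed line.

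Complex I takes electrons from NADH. Its 30 accessory subunits, which surround and stabilise the core, all had a shared end region, as did its 8 assembly factors in the rule, Ndufaf1 to Ndufaf8. Of the 7 core subunits, which carry the flavin, the iron-sulfur clusters and the quinone site, 6 had one. Ndufv1, the subunit that holds the flavin and the NADH site, was enriched 11.3-fold in replicate 1 and 10.8-fold in replicate 2 at chr19:4012566-4013042. The fold is the authors' own value for a peak, namely summit reads over the background around it in the same library, with 1 added to both numbers, so folds from 2 libraries of different depth can be set side by side only roughly. Its score stood at the 96.6th percentile, averaged over the percentiles of the 2 lists, among the highest of the members. Ndufs8, an iron-sulfur subunit, had 7.91 in replicate 1 and 8.06 in replicate 2, with 42 and 54 reads, the most reads of any member in each list. Ndufv2, which carries another iron-sulfur cluster, had 9.78 in replicate 1 and 10.8 in replicate 2. Ndufs1 and Ndufs7, also iron-sulfur subunits, were lower than these in both libraries. Ndufs1 had 4.32 in replicate 1 and 5.57 in replicate 2, and Ndufs7 had 5.06 in replicate 1 and 5.35 in replicate 2. Ndufs3, a core subunit, had 5.73 in replicate 1 and 8.46 in replicate 2 at its start, and 6.96 in replicate 1 and 7.91 in replicate 2 at its other end.

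Ndufb4b and Ndufb4c, short genes with the Ndufb4 name, had no shared region within 1 kb, the nearest lying 18875 bp from Ndufb4b and 38434 bp from Ndufb4c, while Ndufb4 itself had 11.2 in replicate 1 and 9.35 in replicate 2. Reads from near-identical copies can be lost or split in mapping, and no source used here says how the authors treated them.

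Complex II, succinate dehydrogenase, also serves the citric acid cycle and is encoded wholly in the nucleus. All 4 subunit genes and all 4 assembly factor genes had a shared end region. Sdha, the flavoprotein that oxidises succinate, was enriched 6.37-fold in replicate 1 and 8.65-fold in replicate 2, and was the lowest of the 4 subunits in replicate 1. Sdhb, the iron-sulfur subunit, had 10.1 in replicate 1 and 11.8 in replicate 2, and Sdhc, a membrane anchor, had 10.0 in replicate 1 and 12 in replicate 2. Sdhd, the other anchor, had 9.37 in replicate 1 and 8.41 in replicate 2. Sdha, Sdhb and Sdhc were thus higher in replicate 2 and Sdhd was lower, so the libraries did not differ in 1 direction.

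Complex III passes electrons from quinol to cytochrome c. All 8 of its nuclear genes in the rule had a shared end region, with fold enrichments between 7.10 and 10.7 in replicate 1 and between 6.71 and 11.7 in replicate 2. Uqcrfs1, the Rieske iron-sulfur protein, had 8.98 in replicate 1 and 8.54 in replicate 2. Of the core proteins, Uqcrc1 had 7.85 in replicate 1 and 11.1 in replicate 2, and Uqcrc2 had 8.62 in replicate 1 and 8.05 in replicate 2.

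Complex V makes ATP. Of its 17 genes, 15 had a shared end region. In the catalytic head and central stalk, Atp5a1 (the alpha subunit) was enriched 8.76-fold in replicate 1 and 8.28-fold in replicate 2. Atp5b (beta, which carries the catalytic sites) had 9.10 in replicate 1 and 11.2 in replicate 2. Atp5c1 (gamma, the rotating shaft) had 10.7 in replicate 1 and 9.97 in replicate 2. Atp5e (epsilon) was the highest of this group with 12.8 in replicate 1 and 12.1 in replicate 2. Atp5d (delta) had no region within 1 kb of a gene end but had one at its annotated start, chr10:80142149-80142454, with 6.52 in replicate 1 and 6.18 in replicate 2.

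The c ring, whose rotation drives the stalk, is encoded by 3 genes that make the same mature protein. Their open regions differed: Atp5g1 was enriched 11.6-fold in replicate 1 and 11.6-fold in replicate 2, Atp5g2 had 6.38 in replicate 1 and 8.50 in replicate 2, and Atp5g3 had 8.85 in replicate 1 and 6.40 in replicate 2. Atp5g1 was above the other 2 in both libraries, and the order of Atp5g2 and Atp5g3 changed between libraries. Among the stator and membrane subunits, Atp5l had no shared end region. A weak peak near its start, chr9:44921222-44921294, was listed in replicate 1 alone, with 10 reads and a fold enrichment of 4.59.

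**Figure D2:**
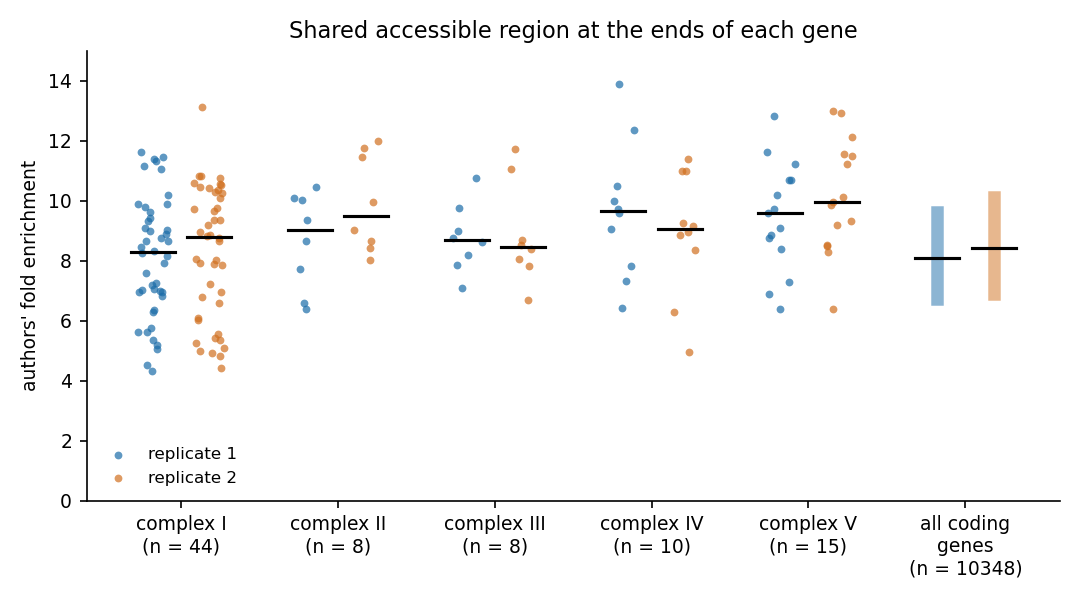
Authors' fold enrichment of the highest-scoring shared region within 1 kb of a gene end, per member and library, by complex; black lines are medians, and for all coding genes at the right the coloured bars span the middle 50% of genes. Members of every complex overlap each other and the range of all coding genes, with medians between 8.29 and 9.65 in replicate 1.

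Where members had an end region, its strength lay within the range of other open genes. The median fold enrichment of the 85 was 8.76 in replicate 1, against 8.11 over the 10348 coding genes with such a region, and 8.96 in replicate 2, against 8.42. The median number of reads at the summit was 23 in replicate 1 and 33 in replicate 2 for members, and the same over all coding genes. The median width was 283 bp, against 292 bp.

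The libraries ranked the members in a broadly similar way. Across the 85 members, Spearman's rho between the fold enrichments of the 2 libraries was 0.67, and it was 0.76 across all coding genes; members share both libraries, so this is a description. In 82 of the 85 the values were within 1.5 times of each other, and 44 were higher in replicate 2 while 41 were lower. The 5 members with the highest mean score percentile were Cox7c, Atp5g1, Ndufv1, Atp5e and Cox8a. Cox7c, a small complex IV subunit, led and was enriched 13.9-fold in replicate 1 and 11.4-fold in replicate 2 at chr13:86046698-86046963, with 40 and 53 reads.

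The 5 lowest were all complex I genes, and complex I held 44 of the 85 members with an end region. Ndufa1 was enriched 5.37-fold in replicate 1 and 4.83-fold in replicate 2 with 8 and 10 reads, close to the lowest read numbers listed. Ndufaf1, an assembly factor, had 6.30 in replicate 1 and 4.93 in replicate 2, and Ndufb10 had 4.51 in replicate 1 and 4.41 in replicate 2. Ndufc2 had 7.0 in replicate 1 and 5.11 in replicate 2, and Ndufa9 had 6.37 in replicate 1 and 5.26 in replicate 2. Ndufa1 is on the X chromosome, as are Ndufb11, with 5.76 in replicate 1 and 9.19 in replicate 2, and Cox7b, with 6.43 in replicate 1 and 4.97 in replicate 2. The median score percentile was 32.1 over these 3 members and 79.5 over the 82 autosomal members with a region. Over all coding genes with a region it was 63.6 on the X and 74.8 on the autosomes. The part that the chromosome has in the low values of these 3 members was not tested.

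Complex IV, cytochrome c oxidase, passes electrons to oxygen, and it had the lowest share of members with a shared end region, 10 of 20. The split followed the forms of its subunits. Of 11 subunit genes known to be expressed broadly, 8 had a shared end region and 10 had one at an end or an annotated start. Of 8 genes grouped as restricted forms, known from certain tissues or, for Ndufa4l2, as hypoxia-induced, 1 had one by either count. A start was held for only 4 of the 8, so the count over starts could add none of the other 4, Cox4i2, Cox6a2, Cox8c and Ndufa4l2. Without these 8 restricted forms and the 2 Ndufb4 copies, 87 of 90 members had a shared region at an end or a start, and Cox6c and Atp5l were among those that did not.

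In each isoform pair the broad form had a listed region in both libraries. Cox4i1, the main regulatory subunit, was enriched 7.31-fold in replicate 1 and 6.30-fold in replicate 2, while Cox4i2, the lung form, had no shared region within 1 kb. A peak of 11 reads inside Cox4i2, chr2:152764300-152764410, was listed in replicate 2 alone with 4.82, and a region of both libraries farther inside the gene, chr2:152756660-152756801, had 6.56 in replicate 1 and 8.34 in replicate 2. Cox6a1, the liver form, had 7.83 in replicate 1 and 8.37 in replicate 2, while the heart and muscle form Cox6a2 had none, its nearest shared region lying 2017 bp away with 9 reads in each library. Cox6b1 had 9.59 in replicate 1 and 8.95 in replicate 2, while the testis form Cox6b2 had none closer to its ends than 10494 bp. Cox7b had the low X-linked values given above, and Cox7b2 had none closer than 45690 bp.

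Cox8a had 9.06 in replicate 1 and 9.26 in replicate 2 with 39 and 52 reads, whereas Cox8b, the heart and muscle form, had none closer than 16593 bp and Cox8c, a testis form, none closer than 6308 bp. Ndufa4, now counted as a complex IV subunit despite its name, had 9.98 in replicate 1 and 9.15 in replicate 2, while its relative Ndufa4l2, known as a hypoxia-induced gene, had none within 1 kb of an end. A shared region did lie inside Ndufa4l2, chr10:127512881-127513122, with 6.54 in replicate 1 and 6.53 in replicate 2. In these pairs, which leave out Cox7a2 and Cox7a1, the form without a region at an end was in each case the restricted one. In the printed stretches, Cox8a has 17 CpG pairs and Cox8b has 1.

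Cox7a1 was the exception. This heart and muscle form had a shared region over its start, chr7:30183948-30184312, enriched 10.5-fold in replicate 1 and 11.0-fold in replicate 2 with 26 and 32 reads, at the 87.3rd percentile. The broad form Cox7a2 had no shared region within 1 kb of a gene end. At its annotated start, chr9:79759661-79759983, it had 8.55 in replicate 1 and 11.8 in replicate 2, so the values of the pair at their starts overlapped. Open chromatin does not show that Cox7a1 was transcribed, and no RNA was measured in these samples. Cox7a2l, a relative that takes part in building respiratory supercomplexes, had 9.72 in replicate 1 and 8.86 in replicate 2.

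**Figure D3:**
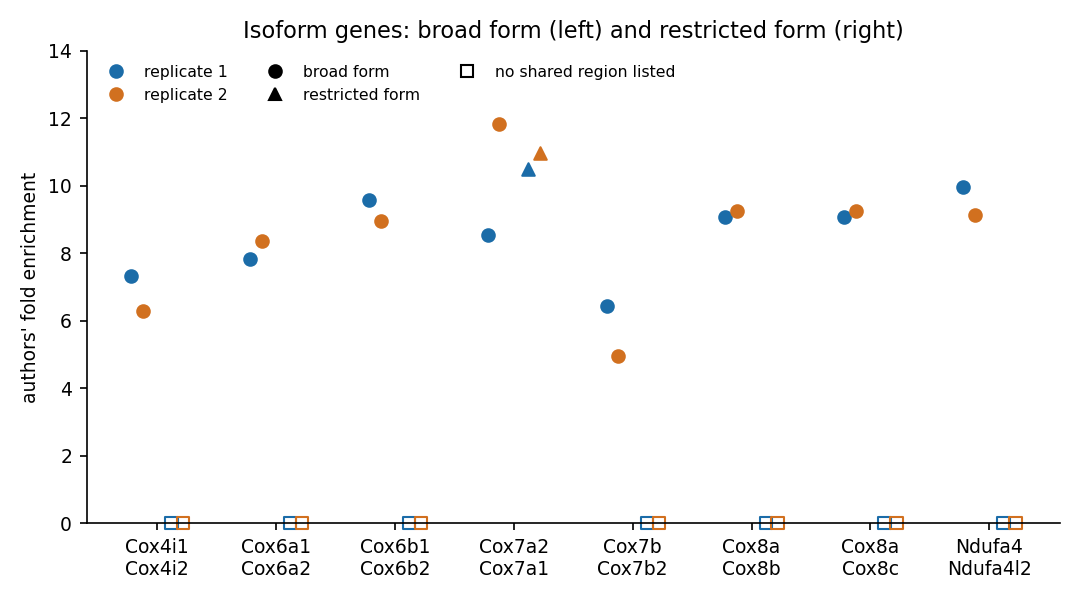
Authors' fold enrichment of the best shared region within 1 kb of a gene end or annotated start, for the broad form (left, circles) and the restricted form (right, triangles) of each pair, in both libraries; Cox8a appears in 2 pairs. Open squares on the axis mark genes with no listed shared region, not a measured 0, and Cox7a1 alone among the restricted forms has a value.

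Cox5a and Cox6c were also without an end region. Cox5a, a matrix-side complex IV subunit, had a region at its annotated start, chr9:57521080-57521324, with 8.34 in replicate 1 and 6.23 in replicate 2. The ends in the reference table span all of a gene's transcripts, so an inner start can lie more than 1 kb from them, as for Cox5a, Cox7a2 and Atp5d. Cox6c, for which no start was used here, had its nearest shared region 1811 bp outside the gene, with 8.26 in replicate 1 and 7.93 in replicate 2.

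Summits sat close to the start. The median distance of the summit from the start, without regard to side, was 53 bp in replicate 1, against 85 bp over all coding genes, and 45 bp in replicate 2, against 81 bp. In 63 of 77 members it was within 150 bp in both libraries. With its sign, the median position was -51 bp in replicate 1 and -38 bp in replicate 2, just upstream. The summit was upstream in both libraries in 54 members and downstream in both in 12. Ndufa11 was the farthest upstream at -664 bp in replicate 1 and -672 bp in replicate 2, and Ndufaf3 the farthest downstream at 446 bp in replicate 1 and 452 bp in replicate 2. These positions are of the highest-scoring region, and both genes had a further shared region over the start itself, chr17:56717646-56717813 for Ndufa11 and chr9:108567332-108567555 for Ndufaf3.

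**Figure D4:**
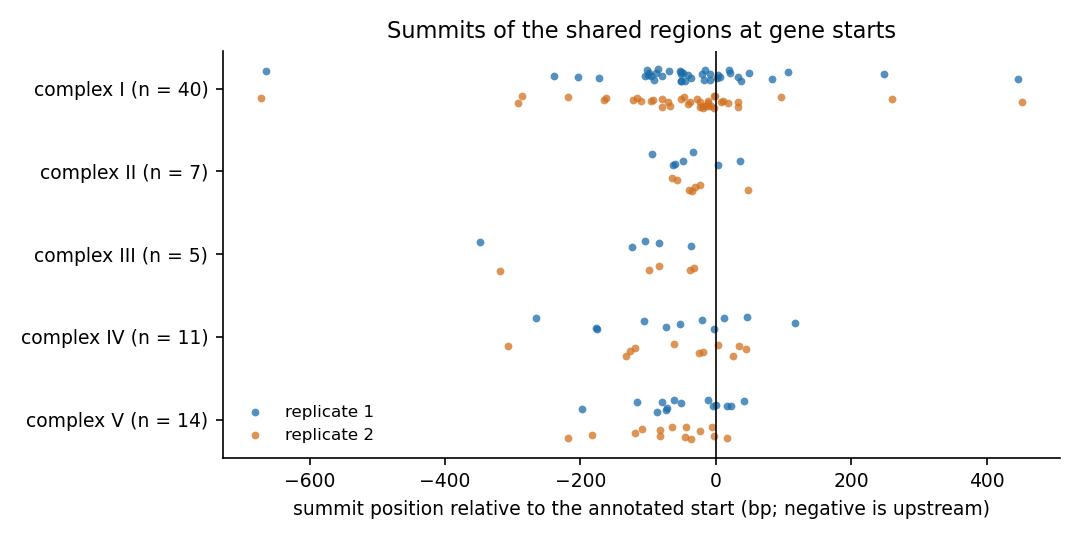
Position of the summit relative to the annotated start in bp (negative is upstream) for the 77 members with a shared start region, by complex and library; points are shifted at random in height within a row. Most summits lie within 150 bp of the start, and both libraries place the outlying ones of Ndufa11 and Ndufaf3 alike.

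Many members share their open region with a neighbour. The end region also lay within 1 kb of an end of another coding gene in 39 of 85 members (45.9%), against 28.2% of coding genes with an end region. In 23 of 82 members the start lay head to head with a start of another gene on the opposite strand within 1 kb (28.0%), against 8.59% of coding genes with a start. All 23 had a shared start region, against 93.9% of coding genes placed head to head, and so did 54 of the 59 other members (91.5%), against 45.1% of other coding genes. The higher share of open starts was also seen among members with no such neighbour. The part that head-to-head placement has in the members' share was not tested.

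Some head-to-head neighbours are described here because of their known roles, chosen after they were seen; most of the 23 members had neighbours of other kinds. Sdhd lay head to head with Timm8b, a chaperone for import into the inner membrane, over chr9:50603757-50604044. Ndufb5 lay head to head with Mrpl47, a mitochondrial ribosomal protein, enriched 9.09-fold in replicate 1 and 8.02-fold in replicate 2. Atp5j, coupling factor 6 of ATP synthase, lay head to head with Gabpa, the DNA-binding subunit of GABP, and their common region had 8.39 in replicate 1 and 10.1 in replicate 2. A region between a pair of genes cannot be assigned to either from these data.

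The members' start stretches were rich in CpG. RefSeq stretches of 300 bases, from 250 before to 50 from the start, were held for 87 starts of 82 members and 21045 starts of coding genes. Of the members' stretches 65.5% were CpG-rich, with at least 55% G and C and an observed-to-expected CpG ratio of at least 0.6, against 41.4% of all. The members' median ratio was 0.829, against 0.574. All 57 CpG-rich member stretches had a shared region within 1 kb of that start, against 77.2% of all CpG-rich coding stretches. Among the rest, 25 of 30 did (83.3%), against 26.3%. The members' share was higher than that of all coding stretches within each class. Stretches were not matched for base composition within a class, and the part that CpG content has in the difference was not tested. None of the 5 member stretches without a region was CpG-rich. Over all coding stretches, 6727 of 8709 CpG-rich ones and 3248 of 12336 others had a region. Most stretches without a region were thus not CpG-rich in general either, and 5 stretches are too few to set members apart.

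Motif letters were searched on both strands of these stretches: GCGCANGCG for NRF1, CCGGAAG for ETS factors such as GABP, AAGATGGC for YY1, GGGCGG for SP1, TGACGTCA for CREB, CCAAT for NF-Y, TATAAA for the TATA box, GAGGAAGT for PU.1 and GAAANNGAA for the interferon-stimulated response element. NRF1 and YY1 letters were more frequent among members than among coding promoters with a shared region. NRF1 was found in 28.7% of the members' stretches, 15.4% of all coding stretches with a shared region and 8.65% of all coding stretches. YY1 was found in 12.6% of the members', 5.04% of those with a shared region and 3.07% of all. ETS was found in 25.3% of the members', 20.9% of those with a shared region and 11.7% of all. At least 1 of these 3 motifs was in 55.2% of the members' stretches, 36% of those with a shared region and 20.7% of all. A match is letters only and not evidence of binding.

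The YY1 matches lay at a narrow place. Of 11 matches in members, 9 began 10 to 38 bases after the start, in Atp5j2, Ndufa3, Ndufa9, Ndufaf8, Ndufb8, Ndufc1, Ndufs4, Ndufs6 and Ndufs7, and 81.8% of the members' matches lay after the start, against 47.5% over all coding stretches. The letters include ATG, and whether a match covers a start codon was not tested. Of complex II, Sdha held the 3 NRF1 matches printed above, Sdhd had 1 NRF1 match at -79 beside an ETS match at -46, and Sdhaf3 and Sdhaf4 also held NRF1 matches.

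SP1 letters were less frequent among members than among coding promoters with a shared region. They were in 46.0% of the members' stretches, 67.0% of those with a shared region and 46.7% of all. CCAAT was in 41.4% of the members', 39.9% of those with a shared region and 38.5% of all. PU.1, the myeloid ETS factor, was in 3.45% of the members', 3.45% of those with a shared region and 3.15% of all. The interferon-stimulated element, the class of site that IRF proteins bind, was in 8.05% of the members', 7.22% of those with a shared region and 8.10% of all. TATAAA was in 11.5% of the members', 6.01% of those with a shared region and 12.7% of all. Among the 82 members' stretches that had a shared region at the start, 7 held it (8.54%). The CREB letters were in 4.60% of the members', 3.6% of those with a shared region and 2.26% of all, which for members is 4 stretches.

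**Figure D5:**
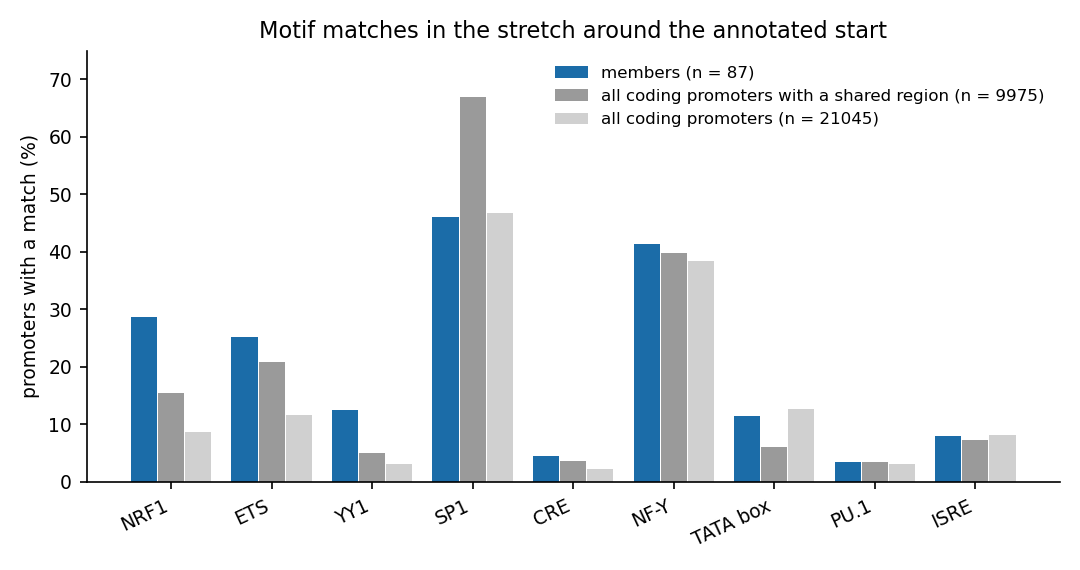
Percent of stretches of 300 bases around annotated starts that hold each motif on either strand, for members, for all coding promoters with a shared region at that start, and for all coding promoters; bars start at 0. NRF1, YY1 and, less so, ETS stand higher in members, while PU.1 and ISRE do not.

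Away from the ends, members had slightly more shared regions within 50 kb than coding genes in general, but not at every setting. The median number of shared regions 1 to 50 kb from the ends, including those inside the gene, was 5 per member with a range of 0 to 15, against 4 per coding gene. Leaving out regions within 1 kb of any coding gene's end, the median was 3, against 2. Within 20 kb the median was 2, against 2 per coding gene. In the better-scoring 50% of each peak list it was also 2, against 2. Members are shorter, with a median length of 7336 bp, against 17330 bp. In all, 530 separate regions lay in these windows, of which 230 were at an end of another coding gene, 300 were at no coding gene end, and 28 lay inside a member. Distance was taken from gene ends and not from starts. The regions at the inner annotated starts of Atp5d, Cox5a and Cox7a2 were therefore counted here. Nearness does not assign a region to a gene.

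The most distal regions were counted around Ndufa2 with 15, Atp5d with 14, and Ndufs8 with 13, and Atp5j2, Atp5md, Cox5a, Ndufs7 and Sdhc had 11 each. The counts of Atp5d and Cox5a include the region at their own inner start. Around Ndufs8 and Sdhc, 10 regions each were away from every coding gene end. In contrast, Ndufa12, Ndufa5, Ndufa8, Ndufaf4, Ndufaf5 and Sdhaf3 had 0, and each of these 6 had its shared region at the start. Peaks in and around members were shared between libraries about as often as peaks in general, 90.6% in replicate 1 against 90.0% of all peaks, and 81.4% in replicate 2 against 76.5%.

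Most other genes that build or control the respiratory chain were also open at an end, against the 47.8% of all coding genes. Of 40 further genes whose symbols fall outside the rule, nearly all assembly factors but including Cyc1, the cytochrome c1 subunit of complex III, and Cycs, cytochrome c, 39 had a shared end region, with Atpaf2, an ATP synthase assembly factor, the exception. All 12 assembly factors in the rule had one. Of 20 regulators of mitochondrial biogenesis, 17 had one, all but Gabpb1, Polg and Tefm. Among them Nrf1 was enriched 7.28-fold in replicate 1 and 8.73-fold in replicate 2, Tfam, which packages mitochondrial DNA, had 9.13 in replicate 1 and 10.6 in replicate 2, and Ppargc1a, a coactivator best known in muscle, fat and liver, had 6.54 in replicate 1 and 5.14 in replicate 2.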

How the data were processed

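ATAC-seq peak lists of 2 unstimulated samples were used. Per the submitters' processing notes, the tools included Trimmomatic, BWA 0.7.17, Picard 2.8.1, HOMER 4.9.1 and MACS2, with the build mm10; their settings, the shift for the transposase and the treatment of duplicates are given in no source used here, and any of them can affect weak peaks. The deposited columns are a score, the fold ratio over local background, and -log10 p and -log10 q values, called on each sample by itself; the lowest deposited -log10 q was 3.00 in each list, and total reads per library are unknown. The deposited distance of each summit from the peak start was also used.

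Summits of a peak were joined under the highest score. Reads at each summit were recovered from the deposited fold and p-value under a Poisson model, within 0.002 for 100% of summits. Overlapping peaks of both lists were merged into shared regions, and a gene's region was the highest-scoring one. Ranks are percentiles within a list. Gene ends came from the RefSeq mouse table and starts, strands and sequence from its promoter table; 18 members had no promoter entry. Computation used pandas 2.3.3, scipy 1.17.1 and numpy 2.4.6 under Python 3.11.15, checked on simulated peaks. No value was tested for significance, since there is 1 group. The members, gene lists and motifs were chosen with earlier results of these data known. Genes named in the text were the catalytic core subunits, both genes of each isoform pair, the 5 highest and 5 lowest by mean score percentile, those without an end region and the 5 with most distal regions; other members were named after their values were seen. A gene that the rule names is not reported here. Alternatives changed the window, overlap, thresholds, distal range, motif window and libraries; 3 more, on CpG-rich promoters, autosomes and annotated starts, were chosen after seeing the data.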

Additional observations from a re-analysis of the deposited data

How the results depend on the processing

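Of 92 alternative values, 79 stayed within the replicate spread or within 1.5 times of the reported count, and 13 moved. With either library left out, 86 members had an end peak in each case, between 77 and 78 a start peak, the median fold enrichment was between 8.81 and 8.96, the median number of distal regions was 6 in each case, and between 1 and 2 restricted isoforms had an end peak. Stricter settings lowered the counts. In the better-scoring 50% of each list, 66 of 100 members had a shared end region, against 34.8% of all coding genes. A shared start region was left in 57 of 82, against 36.5%. At a reciprocal overlap of 50%, the end count was 78, against 44.5%, and the start count 71, against 45.6%. Without replicate 1 the restricted isoforms with an end peak were 2, Cox7a1 and Cox4i2, and the union of both libraries also gave 2. A window of 2 kb gave 2 as well, but not through Cox4i2. The centre of the nearest shared region lay 2806 bp from an end of Cox4i2 and 2017 bp from an end of Cox6a2. With either library left out, the neighbour count was between 39 and 40, the outside list at 39 and the regulators at 17; over the other alternatives they reached as low as 26, 33 and 15. The share of replicate 1 peaks near members that were shared was 80.6% at a reciprocal overlap of 50%, 88.1% with -log10 q of at least 5 and 86.3% in the better-scoring 50% of each list; replicate 2 gave 73.9% at the reciprocal overlap. The median number of distal regions was 2 in the better-scoring 50% and 2 within 20 kb, in each case against 2 over all coding genes. It was 9 within 100 kb, against 7, and 3 without regions at gene ends, against 2. In the last 150 bases of the stretches, TATAAA was in 5 members' stretches and the interferon-stimulated element in 1. The 3 alternatives added after seeing the data gave 57 of 57 CpG-rich starts, 82 of 97 autosomal members and 88 of 100 with starts counted. No paired analysis was possible because the values come from no test and 1 group. Depth limits each absence: no listed summit had under 7 reads in replicate 1 or 9 in replicate 2.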
